A study of Homo sapiens with 12 samples.

Results

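The start sites of 10 genes of fatty acid synthesis were examined in Huh7 chromatin: ACLY, ME1, ACACA, FASN, ELOVL6, SCD, FADS1, GPAM, PNPLA3 and THRSP. The genes were chosen by function, and their chromatin was read from every peak whose summit lay within 10 kb of the hg19 start site of each gene. The 10 peak lists of the chromatin immunoprecipitation (ChIP) libraries held 249 such peaks of 1552170 in all. Of these, 112 had a q of 0.05 or less, against 380321 in the whole lists, and this limit is used below unless stated. The lists of the input libraries held 467 and 490 peaks, and 0 lay in any of the 10 windows.

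Huh7 is a human hepatocellular carcinoma line, and all cells carried a FLAG tag at the C terminus of endogenous VPS72, placed there by gene editing. Those infected for 24 h with lenti-VPS72-FLAG virus (overexpression) were set against cells infected with an empty vector, called lenti-HA virus in the titles (control). The tag therefore sat on the endogenous protein in both conditions and also on the lentiviral protein with overexpression. The knock-in cells came from selected colonies, and the labels do not say whether 1 clone was used. The antibodies were against FLAG, the histone variant H2A.Z, its acetylated form (H2A.Zac), H3K27ac and H3K4me1, with 1 library per antibody and condition and 1 input per condition. No difference between conditions could therefore be tested or checked in a replicate, and an effect of the condition and a difference between 2 libraries cannot be told apart. Intervals on reads and ratios cover counting error only.

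De novo lipogenesis turns cytosolic citrate into fatty acids and is a main route of lipid supply in liver and in many liver cancers. ATP citrate lyase (ACLY) makes cytosolic acetyl-CoA, malic enzyme (ME1) supplies NADPH, acetyl-CoA carboxylase (ACACA) makes malonyl-CoA in the committed step, and fatty acid synthase (FASN) builds palmitate. ELOVL6 elongates palmitate, SCD desaturates saturated chains, FADS1 desaturates polyunsaturated chains, and GPAM starts glycerolipid assembly. PNPLA3 is a lipid droplet protein, and THRSP (Spot 14) is a small nuclear and cytosolic promoter of lipogenesis. Many of these genes are known targets of SREBP1, a transcription factor that binds sterol elements and E boxes, often next to CCAAT boxes bound by NF-Y and GC boxes bound by SP1. VPS72 (YL1) is a subunit of the SRCAP and TIP60 complexes and binds the histone variant H2A.Z. H3K27ac marks active promoters and enhancers, acetylated H2A.Z is known from active start sites, and H3K4me1 marks enhancers and the flanks of promoters.

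The promoter sequences of 5 genes are shown because these genes differed in which marks lay at the start site. Each is the 250 bp before the RefSeq start, written 5′ to 3′ along the gene, from the GRCh38.p14 table. That table matched 8 of the 10 genes, and its coordinates are of another build than the peaks. Capitals mark CCAAT (the CCAAT box), GGGCGG (the GC box), TGACGTCA (the cyclic AMP response element) and TGANTCA (the AP-1 site), each on either strand.
ME1, chr6:83431052-83431301, minus strand: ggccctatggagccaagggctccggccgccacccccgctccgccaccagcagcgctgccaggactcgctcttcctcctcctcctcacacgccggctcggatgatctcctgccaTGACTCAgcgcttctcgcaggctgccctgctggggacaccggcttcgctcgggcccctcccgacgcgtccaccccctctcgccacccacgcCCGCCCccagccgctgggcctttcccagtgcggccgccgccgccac
FADS1, chr11:61817004-61817253, minus strand: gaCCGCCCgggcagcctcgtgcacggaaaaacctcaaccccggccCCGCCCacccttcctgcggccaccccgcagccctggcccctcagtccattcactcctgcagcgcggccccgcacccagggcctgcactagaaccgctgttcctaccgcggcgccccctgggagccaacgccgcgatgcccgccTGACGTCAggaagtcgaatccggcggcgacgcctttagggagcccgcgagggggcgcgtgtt
SCD, chr10:100346983-100347232, plus strand: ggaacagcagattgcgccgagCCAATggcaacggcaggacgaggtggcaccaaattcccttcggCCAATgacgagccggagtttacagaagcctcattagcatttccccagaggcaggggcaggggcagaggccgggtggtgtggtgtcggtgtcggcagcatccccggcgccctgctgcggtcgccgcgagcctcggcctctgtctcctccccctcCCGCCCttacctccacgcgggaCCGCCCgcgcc
GPAM, chr10:112183766-112184015, minus strand: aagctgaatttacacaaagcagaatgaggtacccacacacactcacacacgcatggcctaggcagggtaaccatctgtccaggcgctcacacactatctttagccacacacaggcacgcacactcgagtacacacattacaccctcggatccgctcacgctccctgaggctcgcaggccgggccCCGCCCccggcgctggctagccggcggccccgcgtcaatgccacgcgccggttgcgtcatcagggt
THRSP, chr11:78063611-78063860, plus strand: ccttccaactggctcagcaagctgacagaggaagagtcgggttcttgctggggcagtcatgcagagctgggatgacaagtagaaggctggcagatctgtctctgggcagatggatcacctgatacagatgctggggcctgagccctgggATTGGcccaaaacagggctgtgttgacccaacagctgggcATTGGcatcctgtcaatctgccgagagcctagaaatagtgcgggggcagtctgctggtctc

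ME1 had the only H2A.Z peak found near these genes with overexpression, and its promoter held a TGACTCA 137 bp before the start. FADS1 had the tallest H3K27ac peak and held a full TGACGTCA at 62 bp, a motif found in 1.65% of the 35116 promoters of the table. SCD, which had H2A.Zac at its start in the control, held 2 CCAAT boxes at 229 and 186 bp. GPAM had FLAG but no histone mark at its start, and THRSP had none of the 5 at its start in either condition. The AP-1 motif was found in 6.57% of all promoters, the CCAAT box in 32.0% and the GC box in 42.6%. At least 1 GC box lay in 7 of the 8 matched promoters, THRSP being the exception, and CCAAT boxes lay in ACLY, SCD and THRSP, with 2 in each. None of the 8 windows held CACGTG (an E box), TCACNCCAC (a sterol element) or TATAAA, which were found in 6.34, 0.883 and 10.7% of all promoters. THRSP had 1.2 CpG per 100 bp, and 22.9% of promoters had fewer. The other 7 had 6 to 18, against a median of 4.4 over the table. These letters describe the windows and say nothing on binding.

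Depth was read from the lists. The FLAG libraries had 4.38 M (mega) and 3.07 M reads, control first, and the histone libraries 17.9 to 25.02 M. The reads at a summit were recovered as whole numbers, and summit height is that number over the genome average of the library. The average was 0.456 and 0.329 reads per base for FLAG and 1.397 to 2.23 for the histone libraries. Height is thus relative to each library's own background. Fold, p and q of a peak are the authors' values, and the fold divides by the local background of the peak caller.

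Acetylated chromatin lay at most of the start sites in both conditions. H3K27ac was found near 9 of 10 genes in the control and 9 with overexpression, against 12.6 and 11.4% of all 20 kb tiles of the genome. H2A.Zac was found near 8 and 8 genes, against 18.9 and 14% of tiles. THRSP had neither mark at any deposited p, and GPAM had H3K27ac but no H2A.Zac. H2A.Z was found near 5 genes in the control (ACLY, SCD, ELOVL6, FADS1 and PNPLA3) and near 1 with overexpression (ME1), against 13.6 and 7.6% of tiles. H3K4me1 went from 5 genes to 9, against 8.83 and 26.7% of tiles, so more of these genes had it under overexpression, as more tiles did. FLAG was found near 3 genes in each condition, against 24.1 and 19.7% of tiles, which is close to the background.

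Tiles drawn from the whole genome are mostly inactive, so the same counts were set beside the 19051 tiles that held control H3K27ac. For the 9 genes with that mark, H2A.Z was found near 5 and 1, against 51.8 and 37.5% of such tiles. H2A.Zac was found near 8 and 8, against 83.9 and 71.3%, and H3K4me1 near 5 and 8, against 37.5 and 78.3%. FLAG was found near 2 and 3 of the 9, against 38.3 and 31.3%. With 9 genes these shares are coarse, and none of the differences from the tiles was tested.

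**Figure D1:**
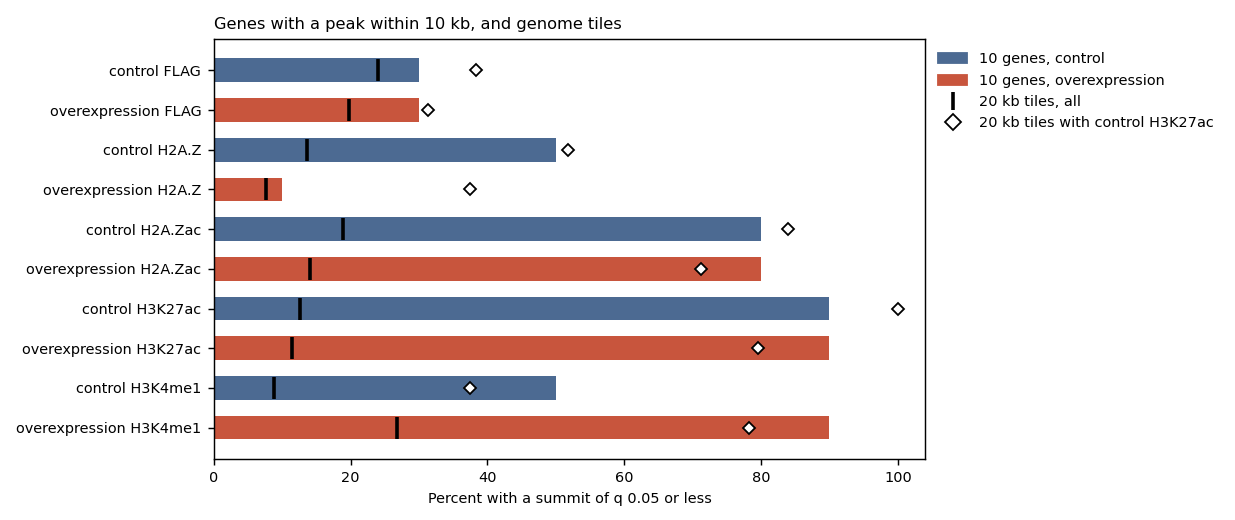
Percent of the 10 genes with a summit of q 0.05 or less within 10 kb (bars) in each of the 10 ChIP libraries. The black ticks are all 20 kb tiles and the diamonds the 19051 tiles with control H3K27ac. H3K27ac and H2A.Zac have the longest bars in the control, and H2A.Z with overexpression the shortest bar of all.

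At the start site itself, taken as 1 kb to either side, acetylated chromatin was again the most frequent. H3K27ac reached it in 8 and 8 genes, against 2.59 and 2.25% of 2 kb tiles, and H2A.Zac in 8 and 7, against 3.73 and 2.48%. H2A.Z reached it in 4 and 1, against 2.22 and 1.17%. H3K4me1 reached it in 1 gene in the control (FASN) and in 4 with overexpression (FASN, ACACA, ACLY and SCD), against 1.64 and 6.82%. FLAG reached it at FASN and GPAM in both conditions, against 5.52 and 3.88%. In the map of peaks, no H3K4me1 peak covered a start site in either condition, and at FASN, SCD, ACLY and GPAM H3K4me1 peaks overlapped acetylated peaks.

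**Figure D2:**
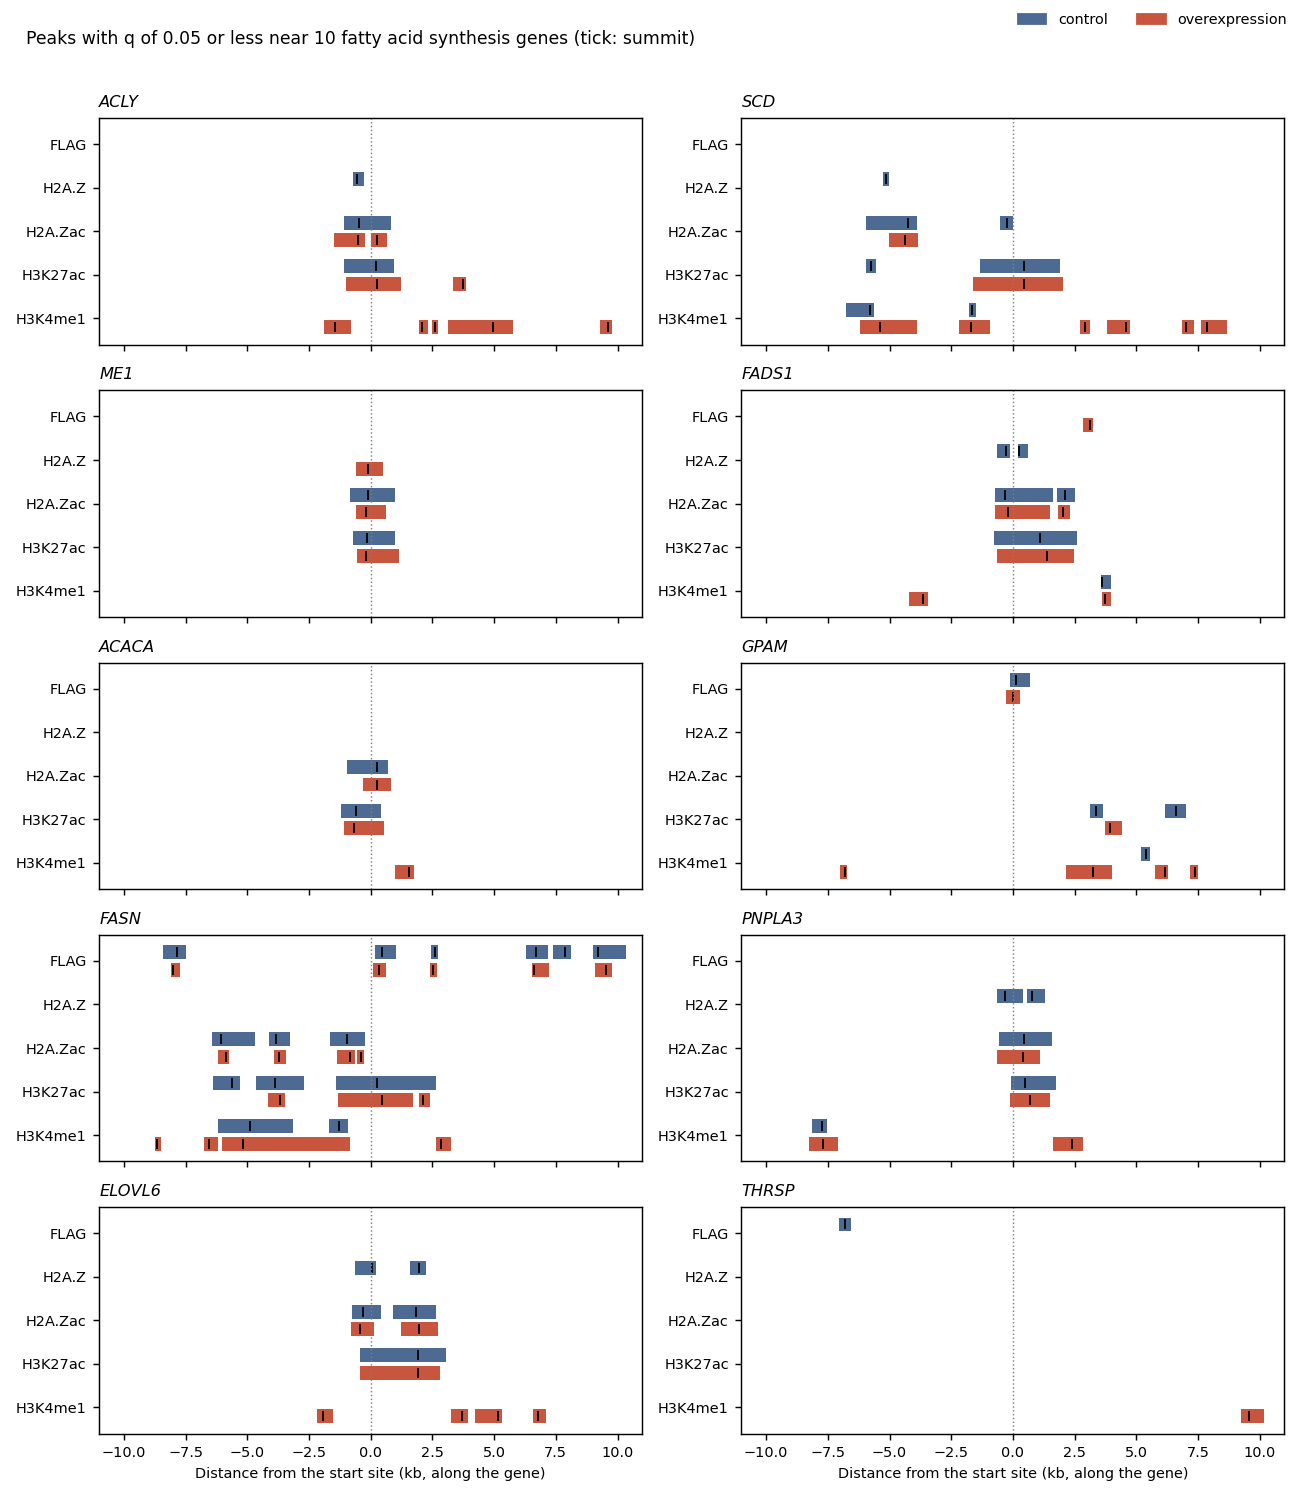
Peaks with q of 0.05 or less within 10 kb of each start site, by distance along the gene in kb, with control above overexpression in each row and a tick at each summit. Acetylated blocks sit over the start in 8 genes, and H3K4me1 lies in the flanks, more often with overexpression.

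H3K27ac was strongest at FADS1. Its peak there had 119 reads at the summit in the control and 86 with overexpression, 63.6 and 40.1 times the genome average. Only 0.493% of control H3K27ac peaks of that q and 1.23% of those with overexpression were stronger by q. The height ratio was 0.631 (95% exact interval 0.472 to 0.839). FASN and SCD came next in the control, with 61 and 60 reads, and had 47 and 48 with overexpression. Their ratios were 0.672 and 0.698. The 3 tallest control peaks were all lower with overexpression, but a choice by control height favours this. Only 13.5% of all shared H3K27ac regions had a ratio above 1.

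The other acetylated start sites held 37 to 47 reads in the control. ELOVL6 had 47 and 55 reads (ratio 1.02, interval 0.679 to 1.54). It was the only H3K27ac region of the 10 shared ones with a ratio above 1, against 13.5% in the genome. ME1, the NADPH supplier, had 46 and 49 reads and a ratio of 0.930. PNPLA3 had 44 and 35 reads (0.694), ACLY 43 and 39 (0.792) and ACACA 37 and 32 (0.755). FADS1 was tallest in both conditions. With overexpression ELOVL6 and ME1 stood ahead of SCD and FASN, by less than the counting intervals of their reads.

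GPAM differed from this group. It had no H3K27ac at its start, and its gene body held small peaks of 10 and 11 reads at 3366 and 6622 bp in the control and 1 of 10 reads at 3925 bp with overexpression. Over the 10 H3K27ac regions found in both conditions the median height ratio was 0.726, against 0.753 for the 23303 shared regions of the genome. Of the 10, 9 were below 1 and 1 above, against 13.5% above in the genome, which is close. At least 1.5-fold lower were 2 of the 10, against 30.1% of regions, and 0 were at least 1.5-fold higher, against 0.652%. Found in the control alone were 4 of 15 regions, against 14.3%: GPAM at 3366 and 6622 bp, SCD at 5754 bp upstream and FASN at 5641 bp upstream. The 1 region found with overexpression alone, against 7.6%, lay 3727 bp into ACLY. All 5 had 10 to 12 reads.

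H2A.Zac lay within 1 kb of the same 8 start sites as H3K27ac in the control, and of all of these but SCD with overexpression. Its control peaks at FASN and SCD ended short of the start itself, which H3K27ac covered. In the control it was tallest at ME1, with 44 reads, 22.7 times the genome average, and ACACA, with 42 reads and 21.6 times. With overexpression ME1 had 46 reads and 20.6 times, and ACACA had 28 reads and 12.5 times. ACACA therefore had a ratio of 0.579 (interval 0.346 to 0.957) and ME1 one of 0.908 (0.588 to 1.41). FADS1 had 39 and 38 reads at the start (0.846), but 34 and 21 at 2101 bp into the gene (0.537, interval 0.296 to 0.951).

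All 13 H2A.Zac regions of these genes were found in both conditions, and all 13 were below 1. In the genome 5.59% of 30067 shared regions were above 1. FASN had 32 and 20 reads at 965 bp upstream (0.543, interval 0.294 to 0.979), and ELOVL6 had 29 and 17 at 307 bp upstream (0.509, interval 0.263 to 0.958). The second ELOVL6 block, 1838 bp into the gene, had 22 reads in both and a ratio of 0.869. PNPLA3 had 28 and 18 reads (0.558), and ACLY 28 and 29 (0.899). SCD had its larger block upstream of the start, with 19 and 14 reads at 4236 bp. At its start site SCD had 14 and 9 reads, and the peak with overexpression did not pass the q limit.

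The median H2A.Zac ratio was 0.608 over the 13 regions and 0.652 over the genome, and 8 of the 13 were at least 1.5-fold lower, against 52.5% of regions. None was at least 1.5-fold higher, against 0.236%, and none was found in the control alone or with overexpression alone, against 24.6 and 4.45%. The tallest peak of each region was also narrower with overexpression in 13 of 13 regions. The median width ratio was 0.675 against 0.753 in the genome, where 83.1% were narrower. A block that was split into several peaks counts as narrower here. At ACLY 1 control peak of 1894 bp stood against called peaks of 623 and 1252 bp, and only the latter was counted. The ratios at these genes were thus of the size seen across that pair of libraries. A lower level of the mark and a lower enrichment of the whole library cannot be told apart.

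**Figure D3:**
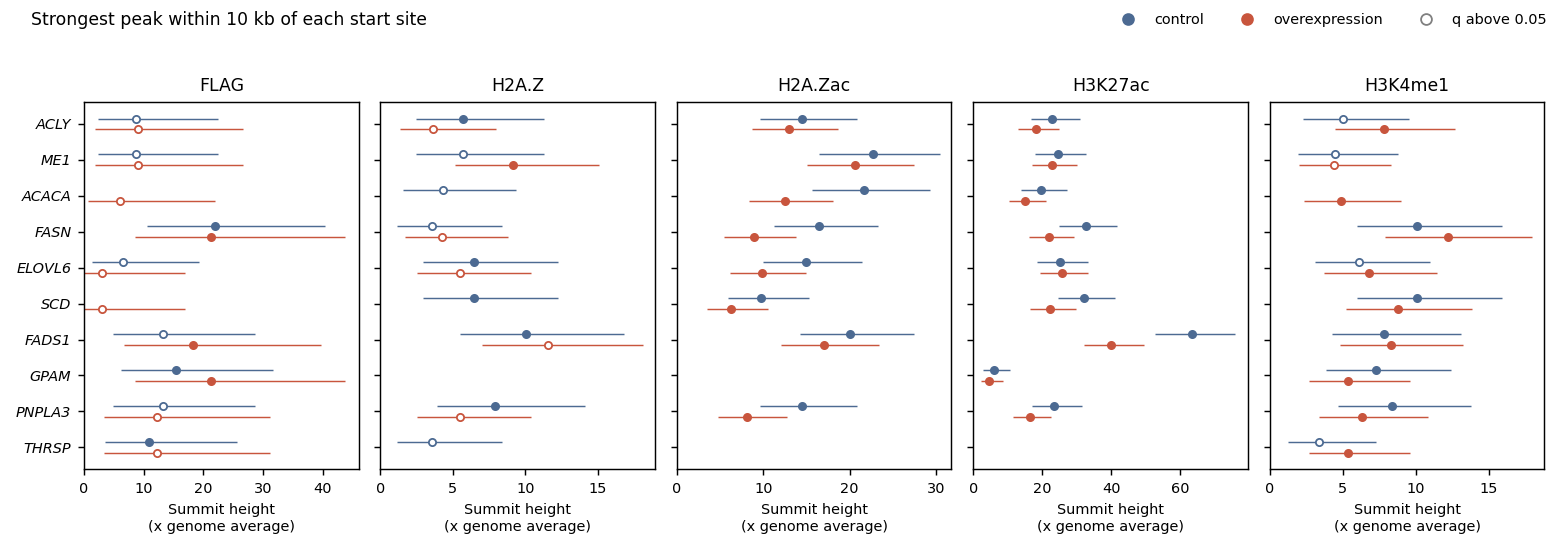
Summit height over the genome average of the strongest peak within 10 kb of each start site, by antibody, with exact 95% Poisson intervals on the reads; open circles had q above 0.05 and an absent circle means no deposited peak. FADS1 stands apart in H3K27ac, and ME1 and ACACA lead H2A.Zac in the control.

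H2A.Z peaks at these genes were small. The 8 control peaks had 8 to 14 reads at the summit, 5.73 to 10.0 times the genome average. FADS1 had 12 and 14 reads in its 2 peaks, PNPLA3 had 11 and 8, ELOVL6 had 9 and 9, SCD had 9 at 5161 bp upstream and ACLY had 8. With overexpression 1 peak passed the limit, at ME1, with 15 reads (exact Poisson interval 8.40 to 24.7) and a height of 9.14.

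The change in the H2A.Z count was larger than the change in reads. At FADS1 the reads were 12 and 14 at 251 bp into the gene and 14 and 19 at 292 bp upstream, in the order control and overexpression, with ratios of 0.993 and 1.16. The local background there went from 2.01 and 1.99 to 3.69 and 4.30 times the genome average, and neither peak passed the q limit with overexpression. ELOVL6 had 9 reads at both places in both conditions, and its −log10 q went from 2.49 to 1.26. PNPLA3 had 11 and 9 reads at 334 bp upstream (ratio 0.697) and 8 and 9 at 779 bp. SCD and ACLY were the 2 regions found in the control alone, of 9, against 34.6% of regions in the genome, and none was found with overexpression alone, against 4.88%. If only peaks of q 0.05 or less in the other library count, 8 of 8 control peaks had no partner. The genome share at this definition was not computed. The whole H2A.Z lists held 26099 peaks of that q in the control and 14109 with overexpression.

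ME1 went the other way. Its H2A.Z peak lay over the start site in both lists, with 8 reads in the control (exact Poisson interval 3.45 to 15.8) and 15 with overexpression, and −log10 q of 0.288 and 5.48. The height ratio was 1.60 (interval 0.635 to 4.35), and 96.1% of shared H2A.Z regions of the genome had a lower one. Its deposited fold went from 2.34 to 6.04, as the local background went from 2.04 to 1 times the genome average. Among the 7 shared H2A.Z regions ME1 was the 1 at least 1.5-fold higher, against 5.82%, and none was at least 1.5-fold lower, against 15%. ME1 passed the q limit only with overexpression, which favours a high ratio, and the others passed it only in the control. Genome regions selected with overexpression had a median of 0.993, and those selected in the control 0.852. The median of the 7 was 0.958, against 0.912 in the genome, and the 3 regions with a q of 0.001 or less had 1.16, against 0.852. The interval at ME1 held 1, so at this depth a higher H2A.Z level there was not detectable.

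H3K4me1 was found at more places near these genes with overexpression. The 10 windows held 7 peaks in the control and 29 with overexpression, and covered 3.32 and 14.6% of the windows, against 0.486 and 2.51% of the genome. Of 29 H3K4me1 regions, 11 were found with overexpression alone, against 43.3%, and 0 in the control alone, against 2.34%. These 11 lay at GPAM (3), SCD (2), ACLY (2), ELOVL6 (2), FADS1 (1) and ACACA (1), and had 9 to 17 reads. ACACA, ACLY, ELOVL6 and THRSP had no control H3K4me1 peak of that q, and ME1 had none in either condition.

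At the 18 shared regions the median H3K4me1 height ratio was 1.17, against 1.20 in the genome. Its direction turned with the selecting library, as the 7 regions selected in the control had a median of 0.872, against 1.09 in the genome. Of the 18, 5 were at least 1.5-fold higher, against 18.9%, and 1 lower, against 2.04%. All 5 passed the q limit only with overexpression, and the 1 lower region only in the control. That selection favours the direction seen in each. The highest ratio was at ACLY, 4943 bp into the gene with overexpression, where 6 reads stood against 16 (2.33, interval 0.865 to 7.26). ELOVL6 had 6 and 14 reads at about 5 kb into the gene (2.04) and 5 and 11 nearer the start (1.92). The 1 lower region was at GPAM, 5394 bp into the gene, with 13 and 8 reads (0.537, interval 0.193 to 1.40). The tallest peak was wider in 15 of the 18 regions, with a median width ratio of 2.16 against 1.85 in the genome. Where calls merged, this sets different peaks side by side. At FASN a control peak of 786 bp was set against 1 of 5169 bp, though the region also held a control peak of 3056 bp. The shortest H3K4me1 peak, taken as the length given to each read, was 214 bp in the control list and 255 bp in the other, and its part in the widths was not tested.

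At FASN the control had separate H3K4me1 peaks at 1301 bp upstream (18 reads) and 4872 bp upstream (17 reads, 3056 bp wide). With overexpression 1 peak of 5169 bp, with 25 reads at its summit and −log10 q of 10.1, overlapped both and held both control summits. Its own summit lay 5192 bp upstream, so its reads and those of the tallest control summit are of different places. Called H3K4me1 covered 3842 bp at FASN in the control and 6598 bp with overexpression, and 0 and 4901 bp at ACLY. The same stretch held H2A.Zac at 3832 and 6079 bp upstream with 20 and 18 reads in the control and 14 and 14 with overexpression. It also held H3K27ac at 3880 bp, with 15 and 11 reads. SCD had a like group of marks upstream of its start: in the control H2A.Z at 5161 bp, H2A.Zac at 4236 bp, H3K27ac at 5754 bp and H3K4me1 at 5787 bp. With overexpression H2A.Zac (14 reads) and H3K4me1 (18 reads) were found there, and the H2A.Z and H3K27ac lists held no peak of any p.

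**Figure D4:**
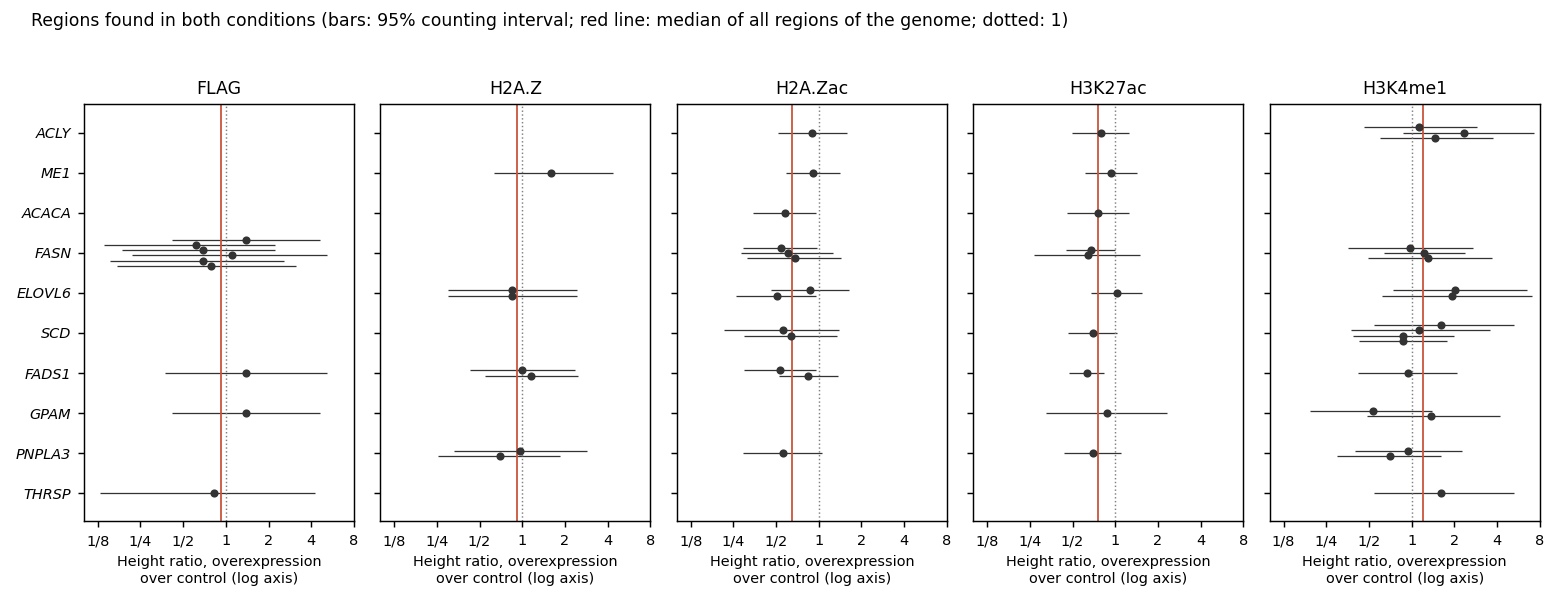
Ratio of summit heights, overexpression over control, on a log axis, for every region near the 10 genes found in both conditions, with exact 95% intervals on the reads. All 57 intervals cross the red line, the genome median of that antibody, and 6 intervals (4 H2A.Zac, 2 H3K27ac) lie below 1. That of H3K27ac at FASN ends at 0.99998. The share of all genome regions with an interval below 1 was not computed.

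Over the 5 antibodies 57 regions were found in both conditions, and each of the 57 intervals held the genome median of its antibody. Below 1 lay 6 intervals, at ACACA, ELOVL6, FADS1 and FASN for H2A.Zac and at FADS1 and FASN for H3K27ac, and none lay above 1. The H3K27ac interval at FASN (0.450 to 0.99998) all but reached 1. The genome medians of these 2 marks were themselves below 1, at 0.652 and 0.753. The share of all regions with an interval below 1 was not computed. At this depth no region of these genes differed detectably from the shift of its own pair of libraries. This does not show that they shifted alike, as most intervals spanned more than 2-fold.

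FLAG near these genes was mostly FLAG at FASN. In the control 6 of the 8 peaks lay there, at 447, 2608, 6704, 7859 and 9196 bp into the gene and 7857 bp upstream, with 5 to 10 reads. With overexpression 5 of 7 did, with 4 to 7 reads. Of all 20 kb tiles 1.21% held at least 6 control FLAG peaks and 0.689% at least 5 with overexpression. The whole neighbourhood was rich in FLAG, as the 1 Mb around FASN held 3.14 peaks per 20 kb in the control and 2.46 with overexpression, against 0.451 and 0.305 in the genome. FADS1 (2.08 in the control), PNPLA3 (2.12) and ACLY (1.48) also lay in such stretches, and had no control FLAG peak of that q in their windows.

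GPAM was the only gene with FLAG over its start site. The peak had 7 reads in both lists (exact Poisson interval 2.81 to 14.4), heights of 15.3 and 21.2, and −log10 q of 3.58 and 4.90. THRSP had a peak of 5 reads at 6806 bp upstream in the control, and FADS1 one of 6 reads at 3110 bp into the gene with overexpression. All 9 FLAG regions had a deposited peak in both lists, so none was found in 1 condition alone, against 25.4% in the control and 14.1% with overexpression. The median ratio was 0.831, against 0.923 in the genome, but 1.11 in both for regions selected with overexpression. There was 1 region at least 1.5-fold lower, against 20.4%, and 0 higher, against 16%. Every FLAG interval held 1.

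FLAG and H2A.Z did not meet at these genes. Of the FLAG peaks 0 of 8 in the control and 0 of 7 with overexpression overlapped an H2A.Z peak, against 8.31 and 5.43% of all FLAG peaks. No gene with a FLAG peak had an H2A.Z summit of that q in its window in the same condition. If the FLAG peaks were independent, a count of 0 would allow shares of up to 37.5 and 42.9%. They were not, as 6 of the 8 and 5 of the 7 lay at FASN, so these limits are too narrow. A difference from the genome was not detectable at this number. H3K27ac was overlapped by 2 FLAG peaks in each condition, all at FASN, against 5.48 and 4.73% of all FLAG peaks. FLAG ChIP of cells without the tag was not analysed here, so a FLAG peak need not be a place of VPS72 binding.

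The summits of the 2 acetylated marks stood apart along most of the genes that had both. In the control the strongest H3K27ac summit lay downstream of the start and the strongest H2A.Zac summit upstream at FASN, ACLY, SCD, ELOVL6 and FADS1, and the reverse held at ACACA. How often this holds at other start sites was not computed. At ME1 and PNPLA3 the summits were 60 and 32 bp apart on the same side. The sides were thus opposite in 6 of 8 genes in the control, and in 5 of 8 with overexpression. ELOVL6 then had its summits at 1898 and 1957 bp into the gene, 59 bp apart. The result depends on the peak taken, as ELOVL6 also had a control H2A.Zac summit at 1838 bp, near that of H3K27ac at 1933 bp. At SCD the strongest H2A.Zac summit lay in a separate block 4236 bp upstream. Within overlapping peaks the median distance was 755.5 bp in the control and 765 bp with overexpression. Genome peaks at least as wide as the narrowest of these had medians of 315 and 333 bp, and all overlapping peaks 135 and 124 bp. Wide peaks leave more room for distance, and this comparison was chosen after the values were seen.

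**Figure D5:**
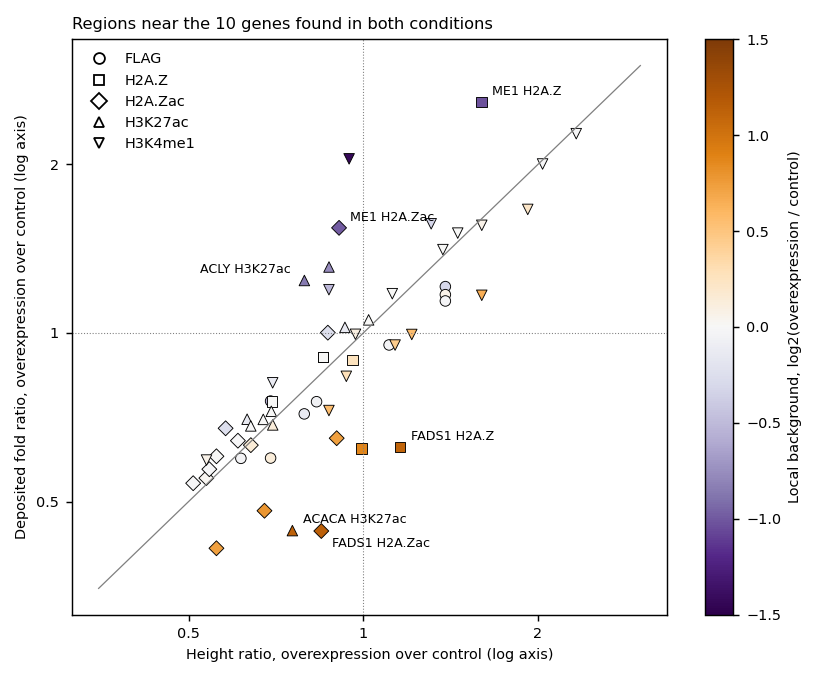
Ratio of deposited folds against ratio of summit heights, overexpression over control, both on log axes, for the regions found in both conditions; symbols are antibodies and colour is the log2 change of the local background. Points well below the diagonal are orange (FADS1, ACACA) and points well above it purple (ME1, ACLY). This colour pattern holds by construction, because the local background was itself calculated using the fold.

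The deposited fold and the height differed where the local background did, and at some regions pointed opposite ways. The first part holds by construction, because the fold divides by that background, and the background was in turn calculated using the fold. At ME1 the H2A.Zac fold went from 7.83 to 12.1 while the height ratio was 0.908, as the local background went from 2.38 to 1.20 times the genome average. At ACACA both were lower, but the H3K27ac fold went from 12.7 to 5.64 with a height ratio of 0.755, as the background went from 1 to 2.20. ACLY had H3K27ac folds of 9.75 and 12.1 and a height ratio of 0.792, with backgrounds of 1.81 and 1. FADS1 lay in the highest background of the 10 genes, with medians over its histone peaks of 2.01 and 2.40, against 1.19 and 1.10 over all histone peaks. The q limit uses this background too, and its part in the H2A.Z counts at ME1 and FADS1 was not tested.

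By gene, FASN, SCD, FADS1 and PNPLA3 each had 4 of the 5 antibodies' peaks nearby in the control, and ACACA and ME1 had 2. With overexpression FASN and FADS1 had 4, THRSP 1 and the other 7 had 3. Just inside the 10 kb limit lay overexpression peaks of H3K4me1 at ACLY (9596 bp, 13 reads) and THRSP (9558 bp, 11 reads) and of FLAG at FASN (9520 bp, 7 reads). The THRSP peak was the only one of that q at THRSP in that condition. Just outside lay 3 overexpression peaks upstream of FADS1, H3K4me1 at 10028 bp (16 reads), H2A.Zac at 10532 bp (33 reads) and H2A.Z at 10587 bp (13 reads). Peaks in these windows can also belong to other genes, such as TADA2A, which lies beside ACACA. FADS2 overlaps FADS1 and NDUFC2 overlaps THRSP, so peaks there cannot be assigned to 1 gene alone.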

How the data were processed

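Peaks were called by the authors with MACS2, and BWA, Trimmomatic and FastQC are also named, without versions, per the submitters' processing notes. The calling control, and any threshold used, were not given in the sources used here. Deposited values of a peak are the fold, which is a ratio to the local background, −log10 p and −log10 q, and an integer score. The deposited lists reach a p of 0.05. The summit offset is also the authors' value. The notes name hg19 and hg38. Control H3K27ac lay within 1 kb of 8 of 10 hg19 start sites and of 0 of 8 GRCh38 ones, so hg19 was used.

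Groups came from the titles. Genotype labels of 5 overexpression libraries name other VPS genes, and the titles were followed. In the control H3K4me1 list the peaks are named H3k3me1, and its title was followed too.

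The 10 genes, the promoter motifs and the limits were chosen with earlier results of these data known. All 10 genes are named, with the strongest peak of each library and every region found in 1 condition. Other genes of the pathway, marker genes of Huh7 and of other cell types, and the VPS72 gene were not analysed here. The direction along the gene came from the RefSeq table for 8 genes and from general knowledge for FASN and PNPLA3.

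Reads at each summit were recovered by matching the deposited fold and −log10 p to whole reads with the peak caller's Poisson formula, to within 0.002 (relative where −log10 p was above 1). In every ChIP library 99.999% or more of peaks came out whole. The genome average is the lowest local background, and depth assumes a genome of 2.7 Gb. Recovery was tested on simulated data. Regions are peaks of q 0.05 or less in either library, joined where they overlapped. Heights were compared where both lists held a peak of any p, and 1.5-fold marks a region as higher or lower. Height and width are those of the tallest peak of each library in the region. Ratio intervals are exact 95% (Clopper-Pearson) and read intervals exact Poisson. Background shares are over chromosomes 1 to 22 and X. Alternatives varied the distance, the q limit, the selecting library and the measure. Python 3.11.15, numpy 2.4.6, scipy 1.17.1, pandas 2.3.3 and matplotlib 3.10.9 were used.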

Additional observations from a re-analysis of the deposited data

How the results depend on the processing

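With 1 library per group there was no replicate to leave out. No paired analysis was possible because each group holds 1 library. The H3K27ac counts near and at the start sites, the H2A.Zac counts and the FLAG overlap with H2A.Z (0) stayed within 1.5 times their values under every alternative run. With all deposited peaks, genes near went to 8 and 10 for FLAG (control and overexpression), 9 and 6 for H2A.Z and 9 for control H3K4me1, and genes at the start to 6 and 4 for FLAG, 8 and 5 for H2A.Z and 3 for control H3K4me1. At least 1 FLAG peak of any p lay in 51.3% of all 20 kb tiles in the control and 89.5% with overexpression. The 10 genes with overexpression are thus close to the background, and the control difference was not tested. The other changed counts here have no such share to set beside them. At a q of 0.001 or less, control H2A.Z had 2 genes near and 2 at the start, H3K4me1 had 3 (control) and 5 (overexpression) near, and overexpression FLAG had 1 at the start. A 20 kb limit gave 5 genes for overexpression FLAG and 3 for overexpression H2A.Z, and a 5 kb limit gave 3 for control H3K4me1. Within 500 bp of the start H3K4me1 was at 0 genes in both conditions.

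The side of 1 on which a median height ratio fell depended on the selecting library for FLAG (1.11 by the overexpression list, as in the genome) and H3K4me1 (0.872 over 7 regions by the control list, against 1.09 in the genome). For H2A.Z it was 1.60 by the overexpression list, from the 1 region at ME1, and 1.16 over 3 regions at a q of 0.001 or less. H2A.Zac and H3K27ac stayed below 1 under every alternative run. Regions found in 1 condition, if only peaks of q 0.05 or less in the other library count, came to 2 and 1 for FLAG (control alone and overexpression alone), 8 of 8 and 1 for H2A.Z, 1 for H2A.Zac in the control, 2 for H3K27ac with overexpression, and 1 and 23 for H3K4me1. Genome shares for these counts were not computed. Stricter limits leave fewer peaks by construction, and the cause of the reversals was not tested. Depth limits FLAG most, with 4 to 10 reads at its summits of q 0.05 or less.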
